A study of Mus musculus with 2 samples.

Results

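The genes described here are 9 neuronal activity genes, *Arc*, *Npas4*, *Egr1*, *Egr2*, *Egr3*, *Egr4*, *Nr4a1*, *Nr4a2* and *Nr4a3*, taken by symbol from the 32285 genes of the count matrices. All 9 were found. They are described in the nuclei of dentate granule, CA1, CA3, cortical or subicular and inhibitory neurons of 2 hippocampal libraries, one from PS19 and one from PZKO mice. Neurons transcribe such immediate early genes soon after synaptic input raises calcium, through kinases that act on factors already present in the nucleus, such as CREB, SRF and MEF2, so that no protein has to be made first. *Arc* encodes a postsynaptic protein that drives the removal of AMPA receptors, *Npas4* a transcription factor that is induced by calcium entry in neurons, the *Egr* genes zinc finger transcription factors, and the *Nr4a* genes orphan nuclear receptors. In the hippocampus their RNA marks neurons that were recently active, and in most neurons at rest it is scarce.

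Both groups carried the tau P301S transgene of the PS19 line, whose expression the prion protein promoter drives. PS19 mice were PS19+/- Zbp1+/+, and PZKO mice were PS19+/- Zbp1-/-, from crosses with a Zbp1 knockout line. Each library is labelled as a pool, stands for its genotype alone, and came from hippocampi of males aged 9 months, dissected from one hemisphere. With 1 library per genotype there was no replicate check, no test between genotypes was made, and every interval given below is a 95% interval that covers counting error only. No mice without the tau transgene, and no stimulated or silenced neurons, were analysed here.

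After filtering, 9590 PS19 nuclei and 9307 PZKO nuclei were kept. Unique molecular identifiers (UMIs), which count captured RNA molecules, numbered 116488513 and 171167884 in the full matrices, with medians of 5642 and 8342.5 per barcode, and 47 barcodes occurred in both libraries. *Zbp1* itself was counted 95 times in PS19 nuclei and 39 times in PZKO nuclei (0.946 and 0.258 CPM, UMIs per 1000000 of the same nuclei), and 48 and 21 of these UMIs were in microglia-like nuclei. It had 3 and 2 UMIs in CA1, 0 and 2 in cortical or subicular, 5 and 0 in inhibitory and 0 in DG and CA3 nuclei. It was thus lower but not absent in the library labelled PZKO, and which exons the knockout removes is not given in the sources used here, so 3′ counts are an incomplete check of the genotype. Clusters were named from marker genes. The dentate granule-like class (DG) held 1011 PS19 and 515 PZKO nuclei, the CA1-like class 393 and 401, the CA3-like class 235 and 195, the cortical- or subicular-like class 1022 and 1702, and the inhibitory-like class 422 and 462. Of the markers of each class, 8 of 8 for DG, 6 of 7 for CA1, 7 of 7 for CA3 and 10 of 10 for inhibitory neurons were highest in their own class among the classes compared. For the cortical or subicular class, which holds 6 clusters, 7 of 12 were. Of its other markers *Cux2* and *Rasgrf2* were highest in inhibitory, *Hs3st4* in CA3, *Etv1* in CA1 and *Ntng2* in DG nuclei. Cortical or subicular nuclei were 10.7% of the PS19 and 18.3% of the PZKO nuclei, and a different dissection cannot be told apart from a different survival of these neurons.

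RefSeq promoter windows on GRCm38.p6 were at hand for 6 of the 9 genes. The motif TGACG, the half-site of the cyclic AMP response element that CREB binds, lay on either strand within 250 bases before a start of all 6, and in 8 of their 10 windows, while 17.8% of 32851 windows of the same length hold it. The full element TGACGTCA, with which the half-site overlaps, was in 0 of the 10 windows and in 1.55% of all windows. A serum response element, the site of SRF, was in 4 windows of *Egr2* and in none of the other 5 genes (1.47% of all windows). Most of these *Egr2* windows overlap, so that the counts of windows hold the same element and the same half-sites more than once. These matches are a description of letters and not of bound sites. The windows of *Egr4*, *Nr4a1* and *Nr4a2*, and stretches of 30 bases of *Egr2* and *Npas4*, are shown from 5′ to 3′ because they hold these motifs, in capitals, which also mark TATAAA.
Egr4, chr6:85513590-85513839, minus strand: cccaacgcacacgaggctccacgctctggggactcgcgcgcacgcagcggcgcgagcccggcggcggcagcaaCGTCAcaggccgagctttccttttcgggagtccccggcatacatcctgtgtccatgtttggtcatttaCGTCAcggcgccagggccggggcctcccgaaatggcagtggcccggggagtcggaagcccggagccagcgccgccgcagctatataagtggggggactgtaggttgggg
Nr4a1, chr15:101266596-101266845, plus strand: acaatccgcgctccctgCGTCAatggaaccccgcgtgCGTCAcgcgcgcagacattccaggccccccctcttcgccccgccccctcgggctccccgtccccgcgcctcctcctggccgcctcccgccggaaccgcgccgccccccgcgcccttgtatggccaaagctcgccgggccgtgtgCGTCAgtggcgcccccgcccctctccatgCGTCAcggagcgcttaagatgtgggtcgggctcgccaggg
Nr4a2, chr2:57124004-57124253, minus strand: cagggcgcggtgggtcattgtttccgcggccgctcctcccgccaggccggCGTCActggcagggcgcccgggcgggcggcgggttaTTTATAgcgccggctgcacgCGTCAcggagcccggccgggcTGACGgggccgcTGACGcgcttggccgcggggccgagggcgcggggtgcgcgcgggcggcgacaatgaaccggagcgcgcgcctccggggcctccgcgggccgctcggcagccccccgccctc
Egr2, chr10:67537793-67537822, plus strand: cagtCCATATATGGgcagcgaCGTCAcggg
Npas4, chr19:4990128-4990157, minus strand: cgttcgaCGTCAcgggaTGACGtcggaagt
In *Egr2* the serum response element and a half-site stand side by side. In *Npas4* half-sites on opposite strands end 175 and 165 bases before the RefSeq start of that window, and *Nr4a1* and *Nr4a2* each hold 4 half-sites. The *Npas4* and *Egr2* stretches and the *Nr4a1* window lie inside the annotated bounds of their genes. The starts that follow them are thus not the outermost annotated ones.

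The 9 genes were unevenly spread over the neuron classes. The ranks that follow are among the neuron classes described here. In each library *Npas4*, *Egr1*, *Egr2*, *Egr3* and *Nr4a1* were highest in cortical or subicular nuclei with CA1 next, and *Nr4a3* was highest in CA3 nuclei. *Arc*, *Egr4* and *Nr4a2* were highest in CA1 nuclei in PS19 and in cortical or subicular nuclei in PZKO. In PS19 the cortical or subicular and CA1 levels of *Npas4*, 10.6 and 10.2 CPM, did not differ beyond their intervals. Those of *Egr2*, *Egr3* and *Nr4a2* in PS19 did not either. A further 159 PS19 and 256 PZKO excitatory nuclei were in none of these classes. They had *Nr4a2* at 56.1 and 43.6 CPM and *Nr4a1* at 63.6 and 88.6 CPM. In PS19 both levels were above those of every class ranked here. *Arc* in PS19 was at 38.9 CPM in CA1, 19.1 CPM in CA3 and 18.3 CPM in cortical or subicular nuclei. *Nr4a3* in CA3 nuclei was at 55.6 CPM in PS19 (interval 50.7 to 60.8) and 61.0 CPM in PZKO (56.4 to 66.0), above the 35.4 and 33.5 CPM of CA1 nuclei in the same libraries. DG and inhibitory nuclei were low for most of the genes. Outside the neurons, microglia-like nuclei had *Egr2* at 6.10 CPM in PS19 and 6.13 CPM in PZKO, above every neuron class. They had *Egr1* at 29.3 and 34.7 CPM, beside 26.9 and 19.7 CPM in CA1 nuclei. Across 15 named cell classes and both libraries (30 points, which share libraries and depth), the genes outside the activity lists whose log2(CPM + 1) followed the mean pattern of the 9 most closely were *Sv2b*, which is also a marker of the excitatory class, with a Pearson r of 0.864, *Gm50024* (0.862), *1700030F04Rik* (0.848), *Gpr26* (0.846) and *Itprid1* (0.836). For each of the 9 against this mean, of which it is itself a part, r lay between 0.414 for *Egr2* and 0.845 for *Arc*.

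**Figure D1:**
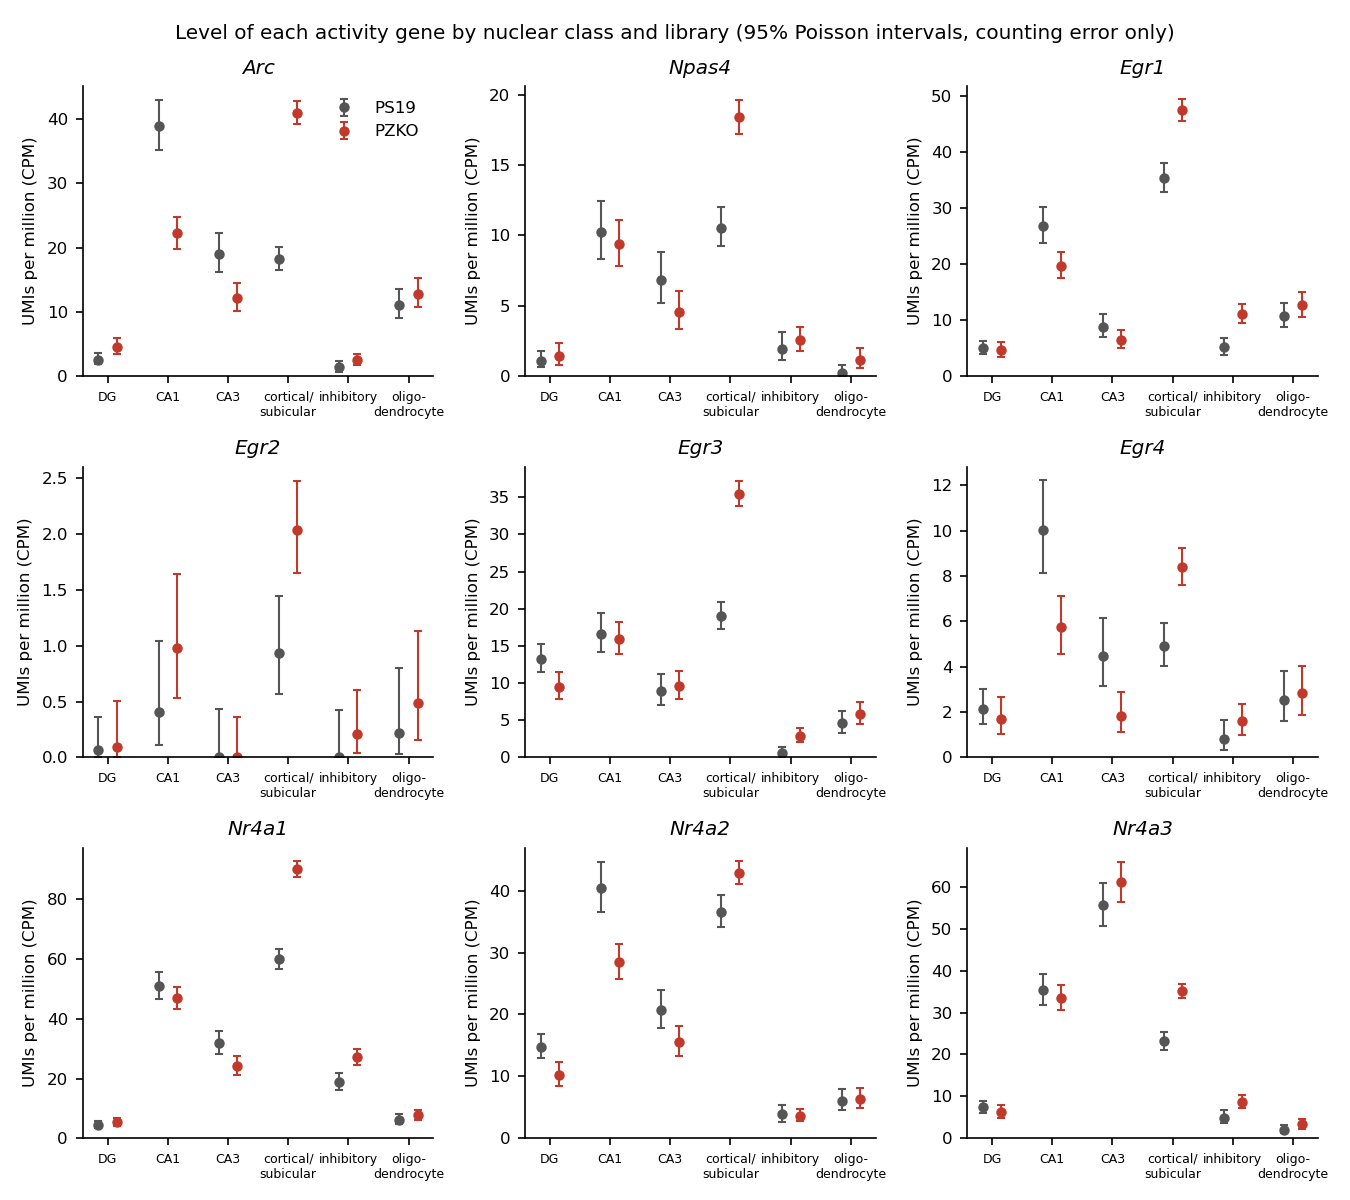
Levels of the 9 genes in 5 neuron classes and in oligodendrocytes, in UMIs per 1000000 of the class (CPM), for the PS19 library (grey) and the PZKO library (red), with 95% Poisson intervals. *Arc* is lower in PZKO than in PS19 in CA1 and CA3 nuclei and higher in cortical or subicular nuclei.

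Oligodendrocytes served as a measure of free RNA, on the assumption, which was not tested, that they transcribe little of these genes themselves. *Arc* UMIs were found in 3.78% of PS19 and 4.93% of PZKO oligodendrocytes, at median depths of 3311 and 4209 UMIs per nucleus. DG nuclei, at median depths of 14635 and 20572, had *Arc* UMIs in 2.87% and 5.63%. Per 100 nuclei this made 3.96 and 9.90 *Arc* UMIs in DG against 3.97 and 5.92 in oligodendrocytes. *Arc* in DG nuclei of PS19 mice was thus at the level of oligodendrocytes. Astrocytes (1.64 and 4.17) and microglia (1.58 and 3.14) had fewer, so background here means the oligodendrocyte level only. A single PZKO oligodendrocyte held 14 *Arc* UMIs. In nuclei thinned to 3000 UMIs, which leaves out 1068 PS19 and 629 PZKO oligodendrocytes and at most 8 nuclei of any neuron class and library, *Arc* was found in 0.693% and 1.37% of DG nuclei and in 2.85% and 3.69% of oligodendrocytes. Thinned astrocytes had it in 0.483% and 0.955% and thinned microglia in 1.40% and 1.94%. For *Arc* the oligodendrocyte level was thus not the lowest among cell types, and the DG shares lay between those of astrocytes and microglia. The pairs that follow were compared with oligodendrocytes only. Of the 45 pairs of a gene and a neuron class, 10 had a thinned share at or under that of oligodendrocytes in both libraries. These were *Arc* in DG and inhibitory nuclei, *Egr1* in DG, CA3 and inhibitory nuclei, *Egr2* in DG, CA3 and inhibitory nuclei, and *Egr3* and *Egr4* in inhibitory nuclei. At this depth the shares of these pairs are thus not above the oligodendrocyte background. Those of *Arc* in DG and inhibitory nuclei lay under it in both libraries, with intervals that did not overlap. Thinning takes more UMIs from the deeper neurons than from oligodendrocytes, and without it, in UMIs per nucleus, *Egr2* in CA3 nuclei was the only 1 of the 45 pairs at or under oligodendrocytes in both libraries, and 5 pairs were in 1 library. *Egr1* in CA3 nuclei, for example, had 31.9 and 34.4 UMIs per 100 nuclei against 3.85 and 5.87 in oligodendrocytes. Cortical or subicular, CA1 and CA3 nuclei had higher shares of *Arc* than oligodendrocytes without thinning, at 20.7% to 44.8%. After thinning, the oligodendrocyte intervals were 2.06% to 3.83% in PS19 and 2.82% to 4.73% in PZKO. CA3 nuclei of PZKO, at 3.08% (1.14% to 6.58%), and of PS19, at 5.11% (2.67% to 8.75%), overlapped them. So did cortical or subicular nuclei of PS19, at 4.42% (3.24% to 5.86%), and CA1 nuclei of PZKO, at 5.24% (3.27% to 7.89%). Only CA1 nuclei of PS19 and cortical or subicular nuclei of PZKO had intervals above them.

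In cortical or subicular nuclei all 9 genes had a higher level in the PZKO library. The level of 7 of the 9 was at least 1.5-fold higher, which holds for 2.74% of the 15565 genes with at least 50 UMIs in this class, and none was 1.5-fold lower (4.58% of all genes). The 9 were chosen with earlier results of these data known, so this is no independent check. The study had reported *Arc*, *Npas4*, *Egr1* and *Nr4a1* as higher in PZKO excitatory neurons of the same libraries. The median log2 ratio of PZKO over PS19 was 0.78, against -0.04 over all genes of the class, and all 9 intervals lay above 0. How many of all genes have such an interval was not counted. Of 24 upstream factors and partners, a list described below, 7 had an interval above 0 and 5 had one under 0.

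*Arc* was at 18.3 CPM in PS19 (16.5 to 20.2, from 391 UMIs) and 41.0 CPM in PZKO (39.2 to 42.8, from 1975 UMIs), a log2 ratio of 1.16 (1.01 to 1.32). The share of nuclei with an *Arc* UMI was 20.7% and 38.7%, and in thinned nuclei 4.42% (3.24% to 5.86%) and 9.25% (7.91% to 10.7%). The thinned positive nuclei held 1.13 and 1.27 UMIs each, close to the lowest count possible. At this depth more nuclei with *Arc* RNA cannot be told from more *Arc* RNA per nucleus. *Npas4*, whose protein dimerizes with ARNT proteins and regulates inhibitory synapses, was at 10.6 and 18.4 CPM, a log2 ratio of 0.80 (0.59 to 1.02). Its 1% of nuclei with the most UMIs held 42.9% of its UMIs in PS19 and 25.7% in PZKO, so that a few nuclei carried much of its level.

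Of the *Egr* genes, *Egr1*, the member most used as a marker of activity, was at 35.4 and 47.6 CPM, a log2 ratio of 0.43 (0.31 to 0.55), and lay under 1.5-fold. *Egr3*, which is itself induced by activity and acts with EGR1 on common sites, was at 19.0 and 35.5 CPM, a log2 ratio of 0.90 (0.74 to 1.06). *Egr2*, known best from myelinating Schwann cells, was rare, with 20 UMIs in PS19 and 98 in PZKO and a log2 ratio of 1.12 (0.42 to 1.89). *Egr4* was at 4.91 and 8.40 CPM, a log2 ratio of 0.78 (0.46 to 1.10). The 1% of nuclei with the most *Egr4* UMIs held 49.5% of them in PS19 and 35.6% in PZKO. The 4 genes thus had one direction, with the smallest ratio for the one with the highest count.

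Of the nuclear receptors, *Nr4a1* was at 60.0 and 90.1 CPM, from 1284 and 4343 UMIs, and its log2 ratio of 0.59 (0.50 to 0.68) sat on the 1.5-fold line itself. Nuclei with an *Nr4a1* UMI made up 56.6% and 72.4%, and 15.5% and 21.3% after thinning. *Nr4a3* was at 23.1 and 35.2 CPM, a log2 ratio of 0.61 (0.46 to 0.75). *Nr4a2*, also a marker of claustrum and deep cortical neurons, differed least, at 36.6 and 42.9 CPM and a log2 ratio of 0.23 (0.11 to 0.35). For *Nr4a2* the thinned shares, 8.05% (6.45% to 9.89%) and 9.13% (7.81% to 10.6%), overlapped within their intervals. So did those of *Npas4* (2.26% and 4.12%), *Egr2* (0.0981% and 0.825%), *Egr4* (1.47% and 1.77%) and *Nr4a3* (6.87% and 9.25%). Those of *Arc*, *Egr1*, *Egr3* and *Nr4a1* did not.

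**Figure D2:**
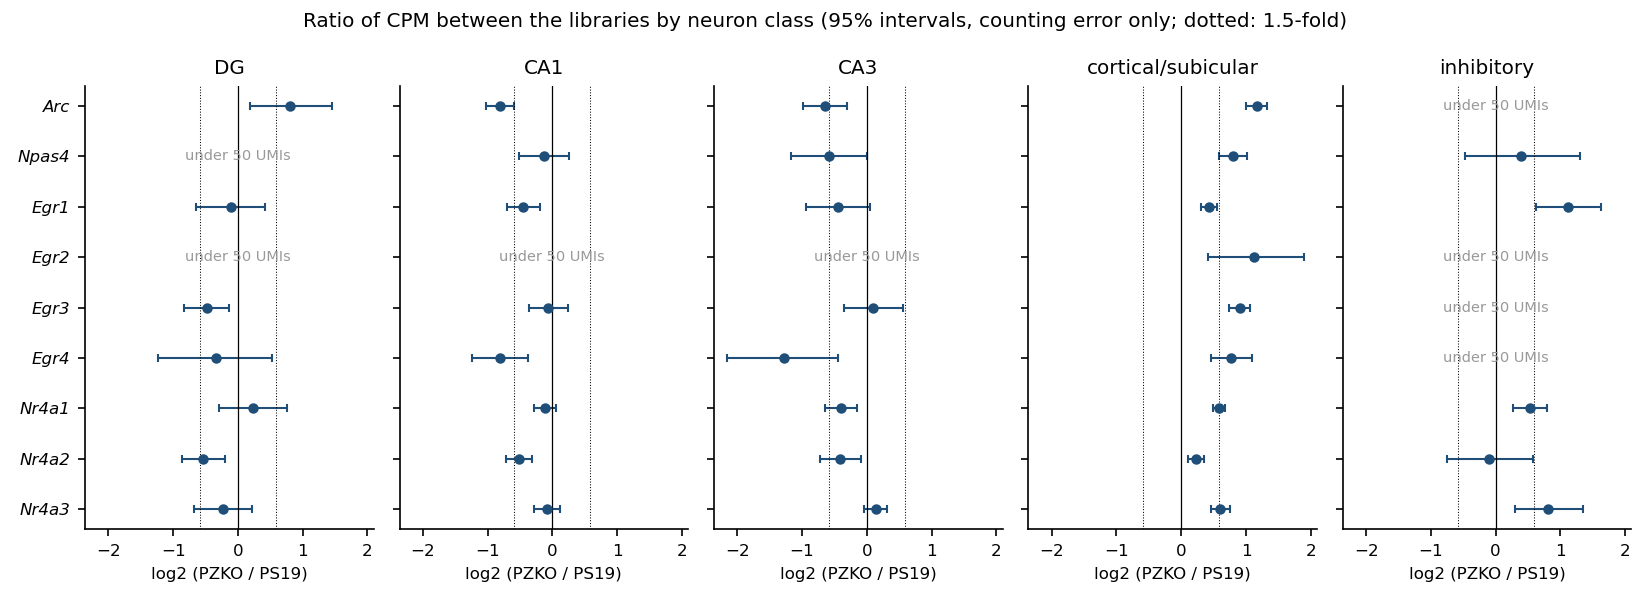
Log2 ratio of CPM, PZKO over PS19, of each gene in 5 neuron classes, with 95% conditional binomial intervals and dotted lines at 1.5-fold. All 9 points lie above 0 in the cortical or subicular class, and all 8 points with at least 50 UMIs lie below 0 in CA1.

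The class holds 6 clusters, which were not equally represented in the libraries, so each was compared on its own, and each is called by a leading gene. Of the genes with at least 50 UMIs in the cluster, 8 of 9 were at least 1.5-fold higher in PZKO in the *Exph5* cluster (5.34% of all genes there), 7 of 8 in the *Il1rapl2* cluster (3.7%), 4 of 7 in the *Cpa6* cluster (5.87%), 3 of 8 in the *Cdh18* cluster (2.09%), 1 of 4 in the *Vwc2l* cluster (3%) and 1 of 7 in the *Npsr1* cluster (2.1%). The median log2 ratio was 1.11, 0.89, 0.74, 0.42, 0.39 and -0.17 in the same order, and over all genes it was between -0.06 and 0.02 in each cluster. *Arc* in the *Il1rapl2* cluster was at 11.9 CPM in PS19 and 55.6 CPM in PZKO, a log2 ratio of 2.23 (1.80 to 2.69), whereas in the *Npsr1* cluster it was at 23.9 and 25.2 CPM, a log2 ratio of 0.08 (-0.33 to 0.50). In the *Npsr1* cluster *Egr1* (-0.33, -0.67 to 0.00) and *Egr3* (-0.36, -0.78 to 0.07) had log2 ratios under 0 with intervals that reach it, and only *Nr4a1* had an interval above 0. With all 6 clusters given the same weight, the log2 ratio of the class was 1.20 for *Arc* and 0.87 for *Npas4*, close to the values above, and 0.36 for *Nr4a2*.

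**Figure D3:**
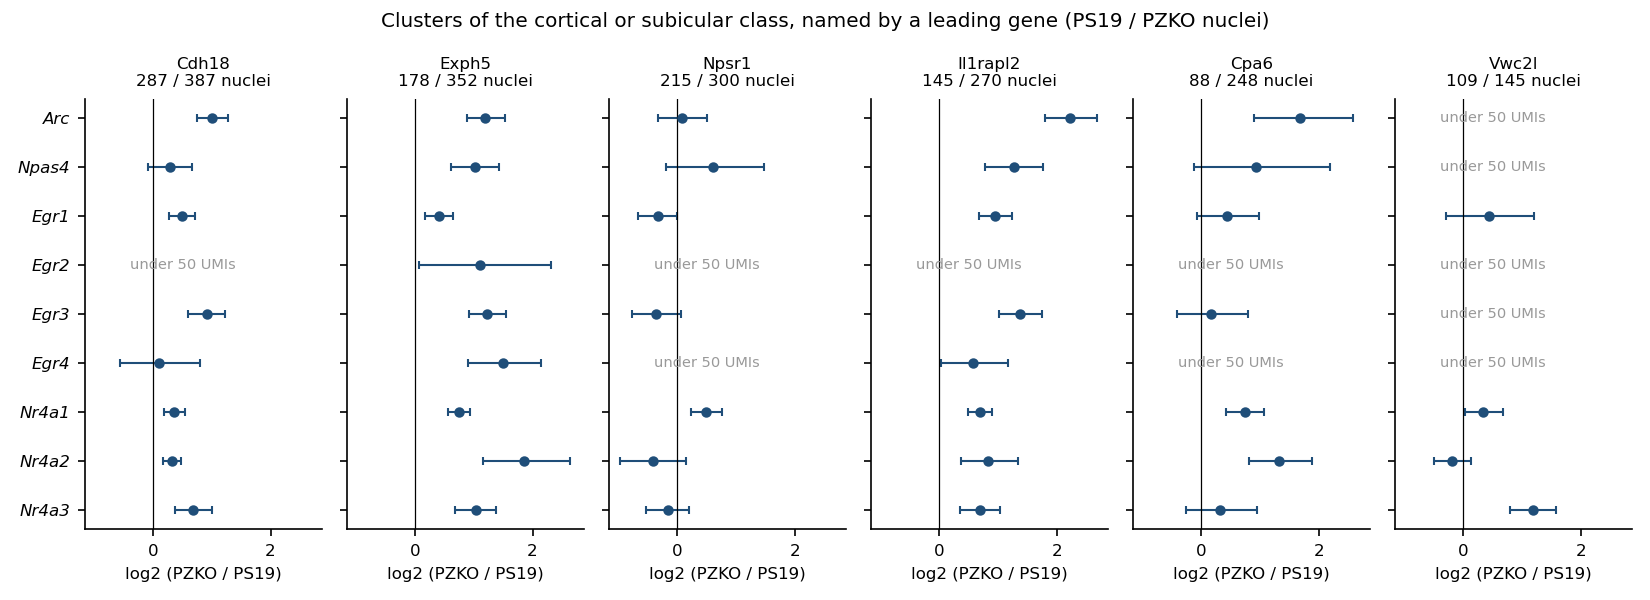
Log2 ratio of CPM, PZKO over PS19, with 95% intervals, of each gene in the 6 clusters of the cortical or subicular class, headed by a leading gene and by the number of PS19 and PZKO nuclei. The points lie to the right of 0 in the *Exph5*, *Il1rapl2* and *Cpa6* clusters and around 0 in the *Npsr1* cluster.

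CA1 nuclei had the opposite direction. Of the 8 genes with at least 50 UMIs, 0 were at least 1.5-fold higher in PZKO (2.21% of 12801 genes in the class) and 2 were at least 1.5-fold lower (4.35% of all genes), *Arc* and *Egr4*. All 8 log2 ratios lay under 0, with a median of -0.29 against -0.06 over all genes, and 4 intervals excluded 0. Signs and intervals were not counted over all genes. Of 24 upstream factors and partners in CA1 nuclei, 5 had an interval above 0 and 4 had one under 0. The other 4 genes, *Npas4*, *Egr3*, *Nr4a1* and *Nr4a3*, had log2 ratios above 0 under 1 or 2 of the other settings tried, up to 0.10. *Arc* was at 38.9 CPM in PS19 (35.1 to 43.0, from 384 UMIs) and 22.2 CPM in PZKO (19.9 to 24.8, from 318 UMIs), a log2 ratio of -0.81 (-1.03 to -0.59). Nuclei with an *Arc* UMI made up 44.8% and 36.9%, or 9.92% (7.15% to 13.3%) and 5.24% (3.27% to 7.89%) after thinning.

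*Egr4* in CA1 nuclei was at 10.0 and 5.74 CPM (-0.81, -1.25 to -0.37). *Egr1* was at 26.9 and 19.7 CPM (-0.45, -0.69 to -0.20). *Nr4a2* was at 40.5 and 28.4 CPM (-0.51, -0.71 to -0.31), and its thinned shares were 12.98% and 6.48%. These 3 genes and *Arc* were the ones whose log2 ratios had intervals that excluded 0. The thinned shares of *Egr1*, 5.85% and 5.74%, and of *Egr4*, 3.05% and 1.995%, overlapped within their intervals, as did those of *Arc*. Those of *Nr4a2* did not. *Npas4* (10.2 and 9.37 CPM), *Egr3* (16.6 and 15.9 CPM), *Nr4a1* (50.9 and 46.9 CPM) and *Nr4a3* (35.4 and 33.5 CPM) had log2 ratios of -0.13 to -0.06 with intervals that include 0. *Egr2* had 4 and 14 UMIs and was too rare to compare.

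CA3 nuclei were alike in the direction of *Arc*. Of 8 genes with enough UMIs, 0 were at least 1.5-fold higher (3.28% of 12275 genes) and 2 at least 1.5-fold lower (5.04%), *Arc* and *Egr4*, and the median log2 ratio was -0.43 against -0.03 over all genes. *Arc* was at 19.1 CPM in PS19 and 12.2 CPM in PZKO (-0.64, -0.99 to -0.30), from 162 and 126 UMIs. *Egr4* had the lowest log2 ratio, -1.28 (-2.16 to -0.45), from 38 and 19 UMIs. *Npas4* was just short of 1.5-fold lower, at 6.83 and 4.55 CPM, with an interval that ends at 0. *Nr4a1*, at 31.9 and 24.2 CPM, and *Nr4a2*, at 20.7 and 15.6 CPM, had intervals under 0, and that of *Nr4a2* rested on few nuclei, since 1% of them held 35.8% of its UMIs in PS19. *Egr1* was at 8.83 and 6.49 CPM (-0.44, -0.94 to 0.05). *Egr3* (8.95 and 9.59 CPM) and *Nr4a3* had log2 ratios of 0.10 and 0.14 with intervals that include 0. *Egr2* had 0 UMIs in both libraries, and 0 of 235 and 0 of 195 nuclei allow shares of up to 1.28% and 1.54%.

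DG nuclei showed no common direction. Of 7 genes with enough UMIs, *Arc* alone was at least 1.5-fold higher (1.45% of 13017 genes) and 0 were at least 1.5-fold lower (6.45%), and the median log2 ratio of -0.23 stood beside -0.09 over all genes. *Arc* had 40 UMIs in PS19 and 51 in PZKO, 2.61 and 4.58 CPM, and a log2 ratio of 0.81 (0.18 to 1.45). A single PZKO nucleus held 14 of the 51 UMIs, and without the 1% of nuclei with the most UMIs of the 9 genes the log2 ratio of *Arc* was 0.26. *Egr3*, at 13.3 and 9.52 CPM (-0.48, -0.83 to -0.13), and *Nr4a2*, at 14.8 and 10.2 CPM (-0.53, -0.87 to -0.20), were lower in PZKO with intervals that exclude 0, although the shares of nuclei with their UMIs after thinning, 3.86% and 3.52% for *Egr3* and 3.76% and 2.93% for *Nr4a2*, overlapped within their intervals. *Npas4* had 17 and 16 UMIs and *Egr2* 1 in each library. *Egr1* (-0.11), *Egr4* (-0.34), *Nr4a1* (0.24) and *Nr4a3* (-0.23) had log2 ratios with intervals that include 0.

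In inhibitory nuclei the genes were rare, and 5 of 9 had at least 50 UMIs. Of these, *Egr1* and *Nr4a3* were at least 1.5-fold higher in PZKO (2.16% of 13240 genes) and 0 were 1.5-fold lower (5.97%), with a median log2 ratio of 0.53 against -0.05 over all genes. *Nr4a1* was the best counted, at 18.8 CPM in PS19 (164 UMIs) and 27.1 CPM in PZKO (394 UMIs). Its log2 ratio was 0.53 (0.26 to 0.80), and it was found in 23.7% and 41.6% of nuclei, or 4.59% and 7.84% after thinning. The intervals of the thinned shares, 2.79% to 7.07% and 5.55% to 10.7%, overlapped. *Egr1* was at 5.16 and 11.1 CPM (1.11, 0.63 to 1.62), against 10.8 and 12.7 CPM in oligodendrocytes. Its thinned shares, 1.21% and 2.83%, are among those not above the oligodendrocyte background, while it had 10.7 and 35.1 UMIs per 100 nuclei. *Nr4a3* was at 4.93 and 8.67 CPM (0.81, 0.30 to 1.35). Its thinned shares were 1.93% and 2.18%, and the 1% of nuclei with the most *Nr4a3* UMIs held 41.9% and 39.7% of them. *Npas4*, at 1.95 and 2.55 CPM (0.39, -0.48 to 1.31), and *Nr4a2*, at 3.90 and 3.65 CPM (-0.10, -0.74 to 0.57), had intervals that include 0, and under some of the other settings tried their log2 ratios had the opposite sign. Among the genes under 50 UMIs, *Egr3* had 5 UMIs in PS19 and 42 in PZKO, *Arc* 12 and 36, *Egr4* 7 and 23, and *Egr2* 0 and 3, where 0 of 422 nuclei allows a share of up to 0.711%. *Nr4a1*, *Nr4a3* and *Egr1* had intervals above 0 in the *Nxph1* and *Kcnmb2* cluster and in the *Adarb2* and *Vip* cluster alike, with *Nr4a1* log2 ratios of 0.75 and 0.51.

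When all excitatory nuclei were pooled, the 9 genes were all higher in PZKO, 5 of them at least 1.5-fold (3.16% of 17721 genes) and none 1.5-fold lower (6.37%), with a median log2 ratio of 0.66. DG nuclei made up 35.9% of the PS19 and 16.8% of the PZKO excitatory nuclei, and cortical or subicular nuclei 36.2% and 55.5%. The pooled level weights each class by its UMIs. Of 60769767 excitatory UMIs in PS19, DG nuclei held 15320409 and cortical or subicular nuclei 21401711. Of 97048543 in PZKO they held 11137038 and 48219063. Cortical or subicular nuclei thus weighed more in PZKO than in PS19, and DG nuclei less. With 5 excitatory classes given the same weight in both libraries, the median log2 ratio was 0.25, *Arc* was at 0.06 in place of 0.67, *Egr4* at -0.14 in place of 0.34 and *Nr4a2* at -0.26 in place of 0.13.

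Detection of several of the genes in the same nucleus was counted after thinning. In thinned cortical or subicular nuclei, at least 3 of the 9 were detected in 3.04% of PS19 (2.08% to 4.29%) and 6.89% of PZKO nuclei (5.73% to 8.21%), and at least 1 in 37.2% and 47.8%. In CA1 nuclei at least 1 was detected in 41.5% (36.6% to 46.5%) of PS19 and 32.4% (27.9% to 37.2%) of PZKO nuclei. At least 3 were detected in 4.58% (2.74% to 7.14%) and 3.24% (1.74% to 5.48%), and both pairs of intervals overlapped. In PZKO cortical or subicular nuclei, 40.0% of the 70 nuclei with *Npas4* also held *Arc* (28.5% to 52.4%), against 9.25% of all nuclei of the class, and 23.6% of those with *Arc* held *Egr3*, against 7.96% of all. In PS19, 3 of 23 nuclei with *Npas4* held *Arc*, or 13.04% (2.78% to 33.6%), against 4.42% of all. Of the ordered pairs of genes whose first gene was found in at least 20 nuclei, the share with the second gene was above that of all nuclei for 64 of 64 in PZKO and 43 of 56 in PS19, with an interval above it for 47 and 14. In CA1 nuclei these counts were 40 of 48 in PZKO and 30 of 35 in PS19, with intervals above for 6 and 4, and *Arc* nuclei of PS19 held *Npas4* in 2.56% against 2.80% of all and *Nr4a2* in 12.82% against 12.98%. In DG nuclei of PS19, 13 of 21 pairs were above, and 0 of 39 nuclei with *Egr3* held *Nr4a2* (0 to 9.03%). Differences between the clusters of a class and in the number of nuclei enter these shares. *Egr2* was in 1 thinned cortical or subicular nucleus of PS19 and 14 of PZKO, and in 1 CA1 nucleus of PZKO. Most pairs with *Egr2* as second gene could thus only be 0 where it was in 1 nucleus. Many gene pairs were also counted in both orders, so the counts of pairs do not compare the libraries.

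**Figure D4:**
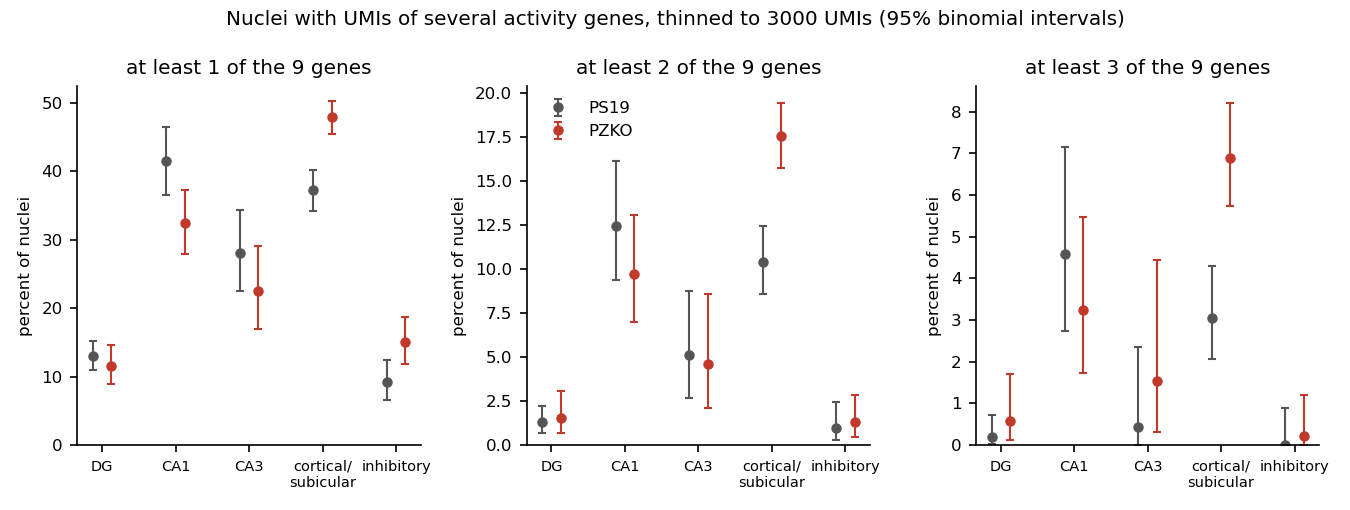
Share of nuclei, thinned to 3000 UMIs, with UMIs of at least 1, 2 or 3 of the 9 genes by neuron class, for PS19 (grey) and PZKO (red), with 95% binomial intervals. The PZKO share is the higher one in cortical or subicular nuclei (6.89% against 3.04% for at least 3 genes). It is the lower one in CA1 nuclei, where the intervals of the libraries overlap in each panel.

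Other activity genes were read from 3 lists, and the genes named as highest and lowest were ranked by whichever bound of the interval lay closest to 0, so that a gene with few UMIs and a larger ratio may stand behind them. In cortical or subicular nuclei, 11 of 26 further primary response genes were at least 1.5-fold higher (2.74% of all genes) and 1 was lower (4.58%, median 0.49), as were 5 and 0 of 26 late response genes (median 0.16), and 0 of 24 upstream factors and partners were past that fold in either direction (median 0.01). The primary response gene *Fosb* had a log2 ratio of 1.39 (0.94 to 1.87) and *Fos* 0.94 (0.70 to 1.19), both subunits of the AP-1 factor, and *Pcsk1*, a prohormone convertase, had 0.85 (0.77 to 0.94). *Jun* went the other way at -0.90 (-1.10 to -0.69), and *Ier5* (-0.38) and the granin *Scg2* (-0.29) were the next lowest of the lists. *Junb* was at 21.4 and 25.4 CPM (0.25, 0.09 to 0.40).

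In CA1 nuclei 1 of 21 primary response genes was at least 1.5-fold higher (2.21% of all genes) and 3 were lower (4.35%, median -0.11), and the lowest of the lists were *Junb* (-0.79, -1.07 to -0.52), *Srf*, the serum response factor (-1.03, -1.63 to -0.43), and *Jun* (-0.74). *Camk4*, a kinase of CREB, *Mef2d* and *Arnt2*, a partner of NPAS4, were the highest by that rank at 0.34, 0.27 and 0.21, while the 1 gene past 1.5-fold, *Trib1*, named after its value was seen, was at 0.70 (-0.15 to 1.61). In CA3 nuclei 2 of 18 were higher (3.28% of all genes) and 4 lower (5.04%, median -0.29), with *Nrn1* (-0.46), *Jund* (-0.60) and *Ier5* (-0.94) lowest and *Arnt2* (0.47), *Lingo2* (0.34) and *Sorcs3* (0.38) highest by that rank. The 2 past 1.5-fold, also named after their values were seen, were *Fosl2* (0.84, 0.18 to 1.53) and *Gadd45g* (0.69, -0.05 to 1.46). *Fos* had log2 ratios of -0.31 in CA1 and -1.10 in CA3, the latter from 30 and 17 UMIs, and *Junb* of -0.36 in CA3.

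In DG nuclei 1 of 19 was higher (1.45% of all genes) and 4 were lower (6.45%, median -0.18), with *Btg2* (-0.85), *Jun* (-0.66) and *Ppp1r15a* (-0.91) lowest and *Camk4* (0.70), *Fos* (1.28) and the channel subunit *Cacna1c* (0.14) highest, while *Junb* was at -0.41. In inhibitory nuclei 2 of 20 were higher (2.16% of all genes) and 2 lower (5.97%, median 0.10), with *Scg2* (-0.84), *Rgs2* (-1.09) and *Jun* (-0.99) lowest, *Rxrg* (1.45), *Ppp3ca*, a calcineurin subunit (0.20), and *Crtc3* (0.25) highest, *Fos* at 0.70 and *Junb* at 0.16. Late response genes had medians of -0.14 in DG, -0.10 in CA1, -0.04 in CA3 and -0.09 in inhibitory nuclei, and upstream factors and partners of -0.02, 0.03, -0.04 and 0.05.

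**Figure D5:**
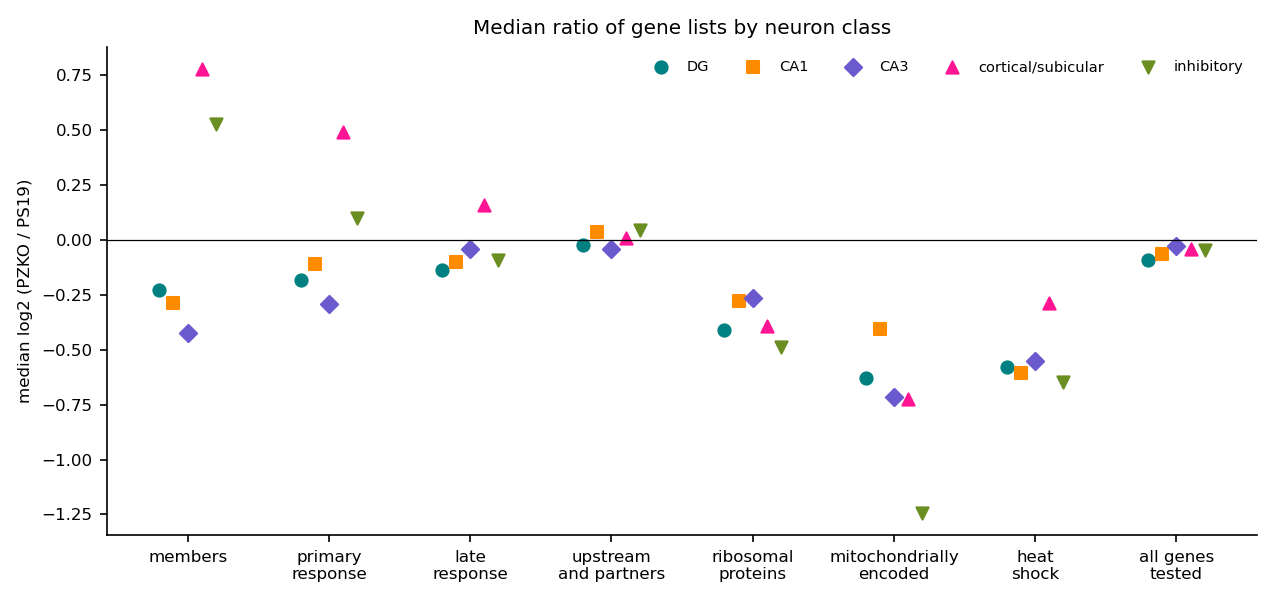
Median log2 ratio of CPM, PZKO over PS19, of the 9 genes, 3 lists of other activity genes, 3 lists that mark RNA quality or stress, and all genes tested, in 5 neuron classes. The 9 genes and the primary response genes are spread on both sides of 0, while ribosomal, mitochondrial and heat shock genes are under 0 in every class.

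Signs of RNA quality differed between the libraries in every neuron class. The 13 mitochondrially encoded genes had median log2 ratios of -0.63 in DG, -0.41 in CA1, -0.72 in CA3, -0.72 in cortical or subicular and -1.24 in inhibitory nuclei, ribosomal protein genes of -0.49 to -0.26, and heat shock genes of -0.65 to -0.29. The 5 choroid plexus markers summed to 116 to 252 CPM in the neuron classes of PS19 and 18.3 to 43.4 CPM in those of PZKO, microglial markers to 49.3 to 69.9 and 37.5 to 54.2 CPM, oligodendrocyte markers to 163 to 511 and 159 to 472 CPM, astrocyte markers to 151 to 616 and 145 to 586 CPM, and endothelial markers to 3.77 to 11.7 and 3.78 to 7.55 CPM. These lists were lower in PZKO, or of mixed sign, both where the activity genes were higher and where they were lower, and their part in the results was not tested. Nuclear long noncoding RNAs had medians of -0.02 to 0.08. Their summed level was lower in PZKO in every neuron class, at 92977 to 166774 CPM in PS19 and 79741 to 133040 CPM in PZKO.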

How the data were processed

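The deposited values are UMI counts per gene and nucleus from 10x Genomics 3′ single-nucleus libraries, made by the authors with Cell Ranger on mm10 as whole numbers, without normalization. The submitters' processing notes name version 7.0.1 and the matrix headers name 8.0.1. Labels call each library pooled, while the protocol says that animals were processed separately, and the counts carry no animal label. Correction of ambient RNA and removal of doublets by the authors are not part of these counts.

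Kept were nuclei that reached 600 UMIs and 300 genes and stayed within 5% mitochondrial UMIs, and the nuclei with the highest doublet scores (simulated doublets among nearest neighbours) were removed at 0.8% per 1000 nuclei. From 2000 variable genes without the members and listed genes, both libraries were reduced jointly to 30 principal components, without integration, and leidenalg 0.10.2 divided a graph of 20 neighbours into 33 clusters (resolution 1). Clusters were named "-like" from marker lists, and 549 PS19 and 519 PZKO nuclei stayed unnamed under thresholds chosen with the clusters in view. Rebuilt names may differ from those of the study.

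UMIs were summed per class and library and scaled to CPM. Sums have exact Poisson intervals, log2 ratios exact conditional binomial intervals (Clopper-Pearson) and shares exact binomial intervals, all covering counting error only. A gene needed 50 UMIs in the libraries together to be compared, and was counted as past the fold at a ratio of at least 1.5 or its inverse. The share of all genes was counted for this fold only, not for the sign of a ratio or for intervals that exclude 0. For shares, nuclei were thinned to 3000 UMIs. A count of 0 was taken to allow 3 counts. The procedure was tested on simulated data. Class sums were drawn there as Poisson counts, the model that the intervals assume. The simulation thus could not test UMIs clumped in a few nuclei, and the intervals do not cover such clumping. Alternatives included edgeR 4.0.16 TMM factors and DESeq2 1.42.0 size factors, used for scaling only. Gene positions came from GENCODE M21 and promoter sequences from RefSeq (GRCm38.p6).

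By rule the text names the 9 members, *Zbp1*, *Fos* and *Junb*, the 3 highest and 3 lowest genes of the activity lists per class, ranked by whichever interval bound lay closest to 0, and the 5 genes with the closest pattern. The members and lists were chosen with earlier results of these data known.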

Additional observations from a re-analysis of the deposited data

Results flagged for a closer look

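For 7 of the 9 genes the log2 ratio of PZKO over PS19 lay above 0 with its interval in one neuron class and below 0 with its interval in another. How many of all genes meet this rule was not counted, so the 7 of 9 cannot be set against a background. Each genotype has 1 library, so the difference between the classes was not tested. The difference of the 2 log2 ratios was 1.97 for *Arc* between cortical or subicular and CA1 nuclei, and it was 1.38 for *Npas4*, 2.06 for *Egr4* and 0.98 for *Nr4a1* between cortical or subicular and CA3 nuclei. For *Egr3* and *Nr4a2* it was 1.38 and 0.76 between cortical or subicular and DG nuclei, and for *Egr1* 1.56 between inhibitory and CA1 nuclei. The *Npas4* interval in CA3 ended at 0.00, and the *Egr1* shares in inhibitory nuclei at equal depth are among those not above the oligodendrocyte background.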

How the results depend on the processing

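Over 14 or 15 alternatives the median log2 ratio of the genes kept its direction in each class, at 0.65 to 0.83 in cortical or subicular, 0.28 to 0.83 in inhibitory, -0.46 to -0.13 in CA1, -0.64 to -0.37 in CA3 and -1.16 to -0.09 in DG nuclei, with -1.16 where the oligodendrocyte CPM was subtracted. Over pooled excitatory nuclei, equal weights of the classes lowered the median from 0.66 to 0.25 and the count of genes at least 1.5-fold higher from 5 to 1. The single such gene in DG nuclei, *Arc*, was lost (0) with a minimum of 200 UMIs, the stricter filter, either subtraction of oligodendrocyte levels, clustering of each library on its own, and without the 1% of nuclei with the most UMIs of the genes. In inhibitory nuclei the count of 2 became 1 with a minimum of 200 UMIs or the stricter filter and 5 without a minimum, and in CA1 nuclei 0 became 1 without a minimum. In cortical or subicular nuclei the count of 7 was between 5 and 7 over 15 alternatives. Subtraction of UMIs per nucleus and equal weights of the cortical clusters were chosen after seeing the data. Of 37 pairs of a gene and a class, 30 had one direction under every setting that gave a value, and of the 7 others 4 were in CA1, 2 in inhibitory and 1 in CA3 nuclei.

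No paired analysis was possible because each genotype has 1 library, which also leaves no replicate to omit. Counts under about 50 UMIs, as for *Egr2* outside cortical or subicular nuclei, allow no comparison. Dissection, pooling of animals and library preparation cannot be told apart from genotype.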
